A study of Saccharina japonica with 9 samples.

Results

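The female-biased bins described here are 10-kb windows of scaffolds of the kelp *Saccharina japonica* that were taken as nuclear. They held more methylated bisulfite reads in female gametophytes (FG) than in male gametophytes (MG). Every scaffold was cut into consecutive windows of 10 kb from its first base, and the methylated reads at the listed cytosines of each window were summed and divided by the nuclear total of the library. A window was taken as female-biased when it held at least 10 methylated reads in each FG library, when the lowest FG share lay above the highest MG share, and when the mean FG share was at least 2 times the mean MG share. These conditions were met by 939 of the 58954 windows with a listed cytosine in any library, or by 1.78% of the 52752 windows that had the 10 reads in every FG library and are called eligible below. The bins were thus selected on the methylated reads of FG and MG, and these values are given as a description and without a test.

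Whole-genome bisulfite sequencing converts unmethylated cytosines, which are then read as thymine, and leaves methylated cytosines unchanged, so each read over a cytosine counts as methylated or unmethylated. Methylation is recorded separately in the CpG context and in the CHG and CHH contexts, where H is any base but G. Kelps alternate between microscopic haploid gametophytes, which are either female or male, and a large diploid sporophyte, and sex is set in the haploid stage by a U chromosome in females and a V chromosome in males, so that a sporophyte carries both.

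The series holds 9 libraries of strain Ye-c12 made from whole bodies, with 3 each of FG at 2 months, MG at 2 months and sporophytes (SP) at 4 months. Both gametophytes were expanded as clones after collection from a blade of the Ye-c12 sporophyte, and the SP were offspring of a cross between FG and MG, so the groups differ in sex, ploidy and age but share one parental background and received no treatment. The study describes the libraries of a stage as biological replicates. The labels do not say whether they came from separate cultures, and the p-values below measure only the spread between them. The deposited lists hold only cytosines with at least 5 reads and at least 1 methylated read that passed the authors' test, so a window without listed cytosines may have been unmethylated or not covered. Nuclear lists held between 3443506 and 5803035 cytosines in FG, between 5043993 and 6255023 in MG, and 1702060, 684742 and 791198 in SP1, SP2 and SP3. SP1 stood apart from the other SP libraries in number of sites and in sequence context, with 27.1% CpG among the sites of other eligible windows, and with 59.1% in SP2 and 59.8% in SP3, and the main SP results are therefore also given without it.

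The female-biased bins took up 3.02%, 3.16% and 2.54% of all nuclear methylated reads in FG, 1.17%, 1.15% and 1.20% in MG, and 2.09%, 2.37% and 2.31% in SP. The means were 2.91% ± 0.33 in FG, 1.17% ± 0.028 in MG and 2.26% ± 0.15 in SP (SD, n = 3 each). SP lay between both gametophytes in the share of these bins, with every SP library below every FG library and above every MG library, and its mean was 2.34% when SP1 was left out, an alternative chosen after the data were seen. FG3 had the lowest share among FG, and it also stood apart on 103 scaffolds with a tRNA gene that the study joined to its artificial chromosome 0, which held 76649 of every 1000000 nuclear methylated reads in FG3, 28845 in FG1 and 28866 in FG2. A share is relative to the nuclear total, so that excess lowers the FG3 share of all other windows. Scaffolds given no chromosome here held 798733 of every 1000000 in FG3, beside 839487 in FG1 and 840587 in FG2. Over all eligible windows the median was 18.2, 18.0 and 17.5 methylated reads per 1000000 in FG1, FG2 and FG3. In the female-biased bins it was 29.6, 31.0 and 25.4, a wider gap of FG3 below FG1 and FG2. How much of the lower FG3 share of the female-biased bins goes with this excess was not tested.

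**Figure D1:**
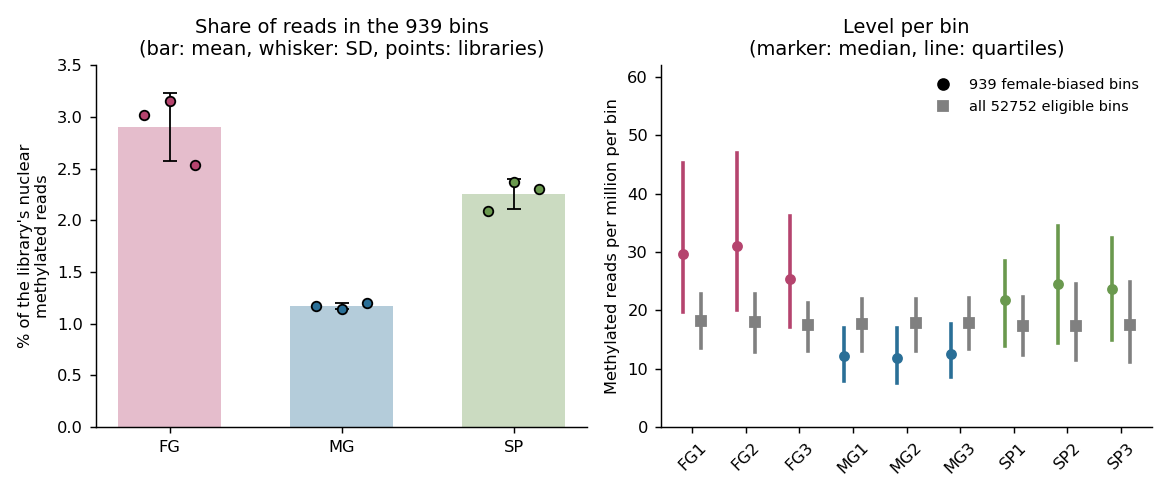
Left, percent of the nuclear methylated reads of each library that fell in the 939 female-biased bins (bars, means; whiskers, SD; points, libraries). Right, methylated reads per 1000000 nuclear methylated reads of the library (RPM) in these bins (coloured) and in all 52752 eligible windows (grey) for each library, with medians and quartiles. FG lies highest, MG lowest and SP between them, whereas the medians of all eligible windows lie between 17.3 and 18.2 RPM in every library.

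At the level of the single bin the bias was moderate. Levels per bin are given in RPM, methylated reads per 1000000 nuclear methylated reads. The median bin reached 29.6, 31.0 and 25.4 RPM in FG1, FG2 and FG3, 12.2, 11.9 and 12.5 RPM in MG1, MG2 and MG3, and 21.8, 24.5 and 23.6 RPM in SP1, SP2 and SP3. Over all eligible windows the corresponding medians were 18.2, 18.0 and 17.5 in FG, 17.6, 17.8 and 17.8 in MG, and 17.3, 17.3 and 17.4 in SP. The bins thus stood above the genome-wide median in all FG libraries and below it in all MG libraries. The FG over MG ratio of the 936 bins with MG reads had a median of 2.33, with quartiles of 2.14 and 2.61 and a highest value of 18.2. A ratio under 2.5 was found in 636 bins, a ratio from 3 to under 5 in 66, and a ratio of 5 or more, or no MG read at all, in 26.

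The threshold cuts through a continuous range. The bins just inside it were scaffold 165 at 290001 to 300000, where 101, 76 and 131 methylated reads were counted in FG and 45, 53 and 88 in MG, scaffold 500 at 80001 to 90000, with 101, 113 and 150 in FG and 64, 68 and 90 in MG, and scaffold 92 at 230001 to 240000, with 200, 172 and 212 in FG and 108, 115 and 134 in MG. Just outside lay scaffold 1055 at 50001 to 60000, with 115, 87 and 138 in FG and 48, 48 and 114 in MG, scaffold 1627 at 10001 to 20000, with 105, 69 and 119 in FG and 56, 51 and 67 in MG, and scaffold 4444 at 1 to 10000, with 98, 51 and 82 in FG and 41, 33 and 67 in MG. Among eligible windows, 5671 had all FG shares above all MG shares, a background of 10.8%, and 939 of them also reached the ratio. With the sexes exchanged, the same rule picked 2136 of 54255 windows, or 3.94%.

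FG and MG were also compared in libraries left out when windows were picked, an alternative added after the data were seen. The rule itself was set with earlier results of these data known. The labels do not say whether the libraries of a stage came from separate cultures. The comparison therefore describes repeatability between libraries only and gives no independent support for a difference between the sexes. The rule was applied to 2 FG and 2 MG libraries, and the FG library and the MG library left out were set against each other in the windows it picked, for each of the 9 pairs. The rule then picked between 898 and 1344 windows, and the left-out FG library had the higher share in 92.0% to 96.4% of them, against 44.2% to 54.8% of the windows eligible in the same settings. The median of the picked windows lay between 21.7 and 27.3 RPM in the left-out FG library and between 11.7 and 12.6 RPM in the left-out MG library. The left-out FG library reached 2 times the left-out MG library in 33.1% to 71.2% of the picked windows, lowest for the pair of FG3 and MG3, against 1.47% to 3.71% of the eligible windows.

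The female-biased bins were not scattered singly over the genome. They fell on 242 of the 9613 scaffolds with listed cytosines, and 671 of them lay on 46 scaffolds with at least 5 such bins, whereas 152 scaffolds held exactly 1. Adjacent bins formed 411 runs including single bins, 630 bins had at least one female-biased neighbour, and 481 lay in the 42 runs of at least 5. The longest run counted 46 bins, on scaffold 146 from 50001 to 510000, followed by 36 bins on scaffold 23 from 500001 to 860000 and 28 bins on scaffold 170 from 220001 to 500000.

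A chromosome could be given to scaffolds that carry a tRNA gene, from the study's table of tRNA genes, which places 291 scaffolds. Of the 256 bins on such scaffolds, 160 were on chromosome 29, 43 on the artificial chromosome 0, 26 on chromosome 7, 14 on chromosome 3 and 8 on chromosome 11. Chromosomes 2, 8, 9, 10 and 21 had 1 bin each, and 22 of the 31 numbered chromosomes had none among their placed scaffolds. The remaining 683 bins were on scaffolds without a tRNA gene, whose chromosome was not determined here.

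**Figure D2:**
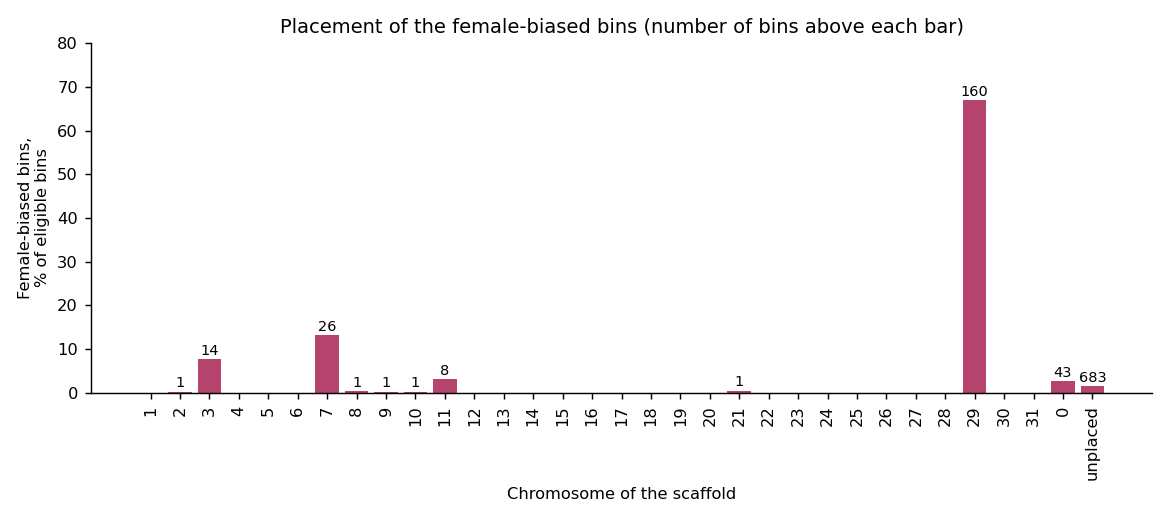
Female-biased bins as percent of the eligible 10-kb windows on the placed scaffolds of each chromosome, with 0 for placed scaffolds of the study's artificial chromosome and unplaced for scaffolds without a tRNA gene. Chromosome 29 reached 66.9% and chromosome 7 13.1%, and 22 numbered chromosomes had no such bin.

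On chromosome 29, 160 of 239 eligible windows were female-biased, and the split followed scaffold borders. Female-biased were 48 of 52 windows of scaffold 146, 47 of 50 of scaffold 170, 34 of 37 of scaffold 320, all 22 eligible windows of scaffold 745 and 9 of 10 of scaffold 1604, with median FG over MG ratios between 2.34 and 2.55. Scaffold 58, placed on the same chromosome, had none among 68 windows and a median ratio of 1.02. Of the 6 scaffolds placed on chromosome 29, 5 were thus female-biased along nearly their whole length and 1 was not. Its strongest bin in FG, on scaffold 320 from 120001 to 130000, gave methylated read counts of 274, 224 and 378 in FG, 139, 138 and 154 in MG, and 59, 42 and 44 in SP. This corresponds to 60.3 ± 2.5 RPM in FG, 25.1 ± 1.6 in MG and 49.4 ± 14.5 in SP (SD, n = 3 each).

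Chromosome 7 showed a different pattern, with fewer bins past the threshold but higher FG than MG values in most of its windows. Female-biased were 26 of 198 eligible windows, and in 118 of the other 172 the FG libraries also lay above all MG libraries, with a median ratio of 1.57 in those 172. The 79 other windows of chromosome 29 had a median ratio of 1.05, and 12 of them had all FG libraries above all MG libraries. The strongest chromosome 7 bin, on scaffold 328 from 340001 to 350000, gave methylated read counts of 87, 160 and 136 in FG, 67, 49 and 97 in MG and 31, 8 and 15 in SP, and its FG2 level of 45.1 RPM stood above FG1 with 18.7 and FG3 with 21.2.

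The scaffold with most female-biased bins was scaffold 23, which carries no tRNA gene and was not placed. There 81 of 84 windows were female-biased, between 1 and 860000, with mean levels per bin between 16.8 and 65.0 RPM in FG, between 7.6 and 28.1 in MG and between 14.4 and 60.5 in SP. Scaffold 92 followed with 53 of 59 eligible windows. Scaffold 392, part of the artificial chromosome 0, had 29 of 34, and the unplaced scaffolds 711, 749 and 839 had 21 of 23, 19 of 22 and 18 of 21. On these 6 scaffolds the FG over MG ratio of the whole scaffold lay between 2.29 and 2.42 and the SP over FG ratio between 0.67 and 0.78, and on scaffolds 146, 170, 320 and 745 of chromosome 29 between 2.33 and 2.67 and between 0.70 and 0.77. Without SP1 the SP over FG ratios of these 10 scaffolds lay between 0.70 and 0.81.

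The highest FG levels were found in segments that covered only a part of a scaffold. The 10 bins with the highest mean FG share were all on 2 unplaced scaffolds, 8 on scaffold 120 and 2 on scaffold 867. On scaffold 120 the bins from 1 to 100000 averaged 112, 115 and 99.8 RPM in FG, 19.9, 19.2 and 21.4 RPM in MG, and 69.5, 72.0 and 64.6 RPM in SP. The 45 windows after this segment averaged 16.2, 15.3 and 16.0 in FG, 16.3, 15.6 and 16.5 in MG, and 14.8, 15.2 and 16.0 in SP. The step was seen in FG and SP, whereas MG stayed near the level of the rest of the scaffold.

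The strongest single bin, on scaffold 120 from 20001 to 30000, gave methylated read counts of 685, 500 and 804 in FG, 119, 105 and 144 in MG, and 148, 53 and 53 in SP, or 138 ± 11.1 RPM in FG, 21.3 ± 1.8 in MG and 75.0 ± 8.5 in SP (SD, n = 3 each). On scaffold 867 the bins from 60001 to 110000 and from 120001 to 130000 were female-biased. Its window at 70001 to 80000 had methylated read counts of 530, 404 and 723 in FG, 111, 86 and 130 in MG, and 116, 44 and 38 in SP. Scaffold 40, chosen after its values were seen, had another such segment, with 8 female-biased bins between 550001 and 660000 whose mean levels lay between 32.4 and 97.5 RPM in FG, between 11.7 and 18.2 in MG and between 26.7 and 65.0 in SP.

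**Figure D3:**
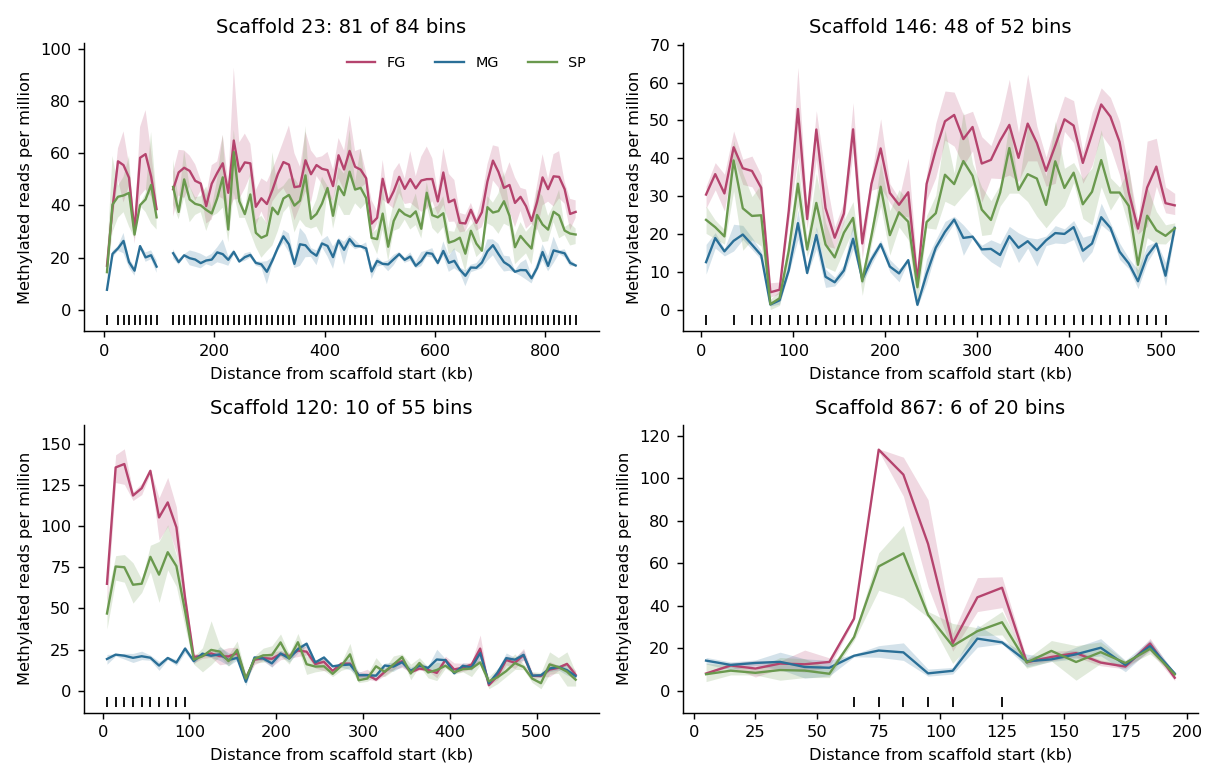
RPM in consecutive 10-kb windows along scaffolds 23, 146, 120 and 867 against the distance from the scaffold start in kb (lines, means of 3 libraries; shading, lowest to highest library; ticks, female-biased bins; gap on scaffold 23, no listed site). On scaffolds 23 and 146 FG lies above SP and SP above MG along most of the length, whereas on scaffolds 120 and 867 the 3 stages separate mainly in segments that hold the 10 and 6 female-biased bins.

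SP took an intermediate position in most female-biased bins. The mean SP level lay between the MG and FG means in 769 of the 939 bins, at or above FG in 156 and at or below MG in 14, and the counts were 708, 198 and 33 without SP1. Of all eligible windows, 25.3% had the SP mean between both gametophyte means, 48.7% at or above FG and 51.0% at or below MG, the last 2 shares overlapping where MG exceeded FG. The rule kept bins with a wide gap between FG and MG, so a larger share between them follows in part from the choice. The SP over FG ratio had a median of 0.78 and quartiles of 0.67 and 0.92, against a median of 0.99 over all eligible windows, and without SP1 these medians were 0.82 and 1.004. Every SP library was below every FG library in 314 bins (33.4%), against 8.73% of all eligible windows, and above every MG library in 750 bins (79.9%), against 10.8%. Without SP1 these counts were 349 and 788, or 37.2% and 83.9% of the bins, against 16.4% and 19.9% of all eligible windows. The bins were chosen for high FG and low MG levels, which enter both counts. SP levels rest on few reads, with medians of 39, 17 and 19 methylated reads per bin in SP1, SP2 and SP3.

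Among bins with at least 50 methylated reads in each FG library, SP stood highest relative to FG on unplaced scaffolds. The bin on scaffold 195 from 390001 to 400000 held 15.2, 22.3 and 16.5 RPM in FG, 8.8, 9.7 and 7.6 in MG, and 25.7, 40.3 and 17.4 in SP. It was followed by 2 bins of scaffold 426, from 200001 and from 140001, and by bins on scaffold 20 from 410001 and scaffold 210 from 310001. In all 5 the mean SP level exceeded the mean FG level, which the ranking on this ratio favours. Every SP library also lay above every MG library in these 5, as in 79.9% of all female-biased bins.

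At the other end, short scaffolds were high in FG, low in MG and nearly without listed cytosines in SP. On scaffold 5567, whose last listed position was 6132, 235, 303 and 285 methylated reads were found in FG, 35, 14 and 12 in MG, and 1, 0 and 1 in SP. Scaffold 4974, with a last listed position of 8364, held 390, 472 and 451 in FG, 86, 24 and 39 in MG, and 4, 2 and 1 in SP. The FG over MG ratios were 16.3 and 10.7. Scaffold 4987 held 125, 194 and 179 in FG, 17, 30 and 30 in MG, and 31, 1 and 1 in SP, so that its SP value rested on SP1. The bins next in this order, on scaffold 2470 from 40001 to 50000 and on scaffold 1611 from 80001 to 90000, were within larger scaffolds, and SP values there were lower but not absent, with counts of 91, 69 and 95 in FG, 27, 19 and 58 in MG and 15, 3 and 7 in SP for scaffold 2470.

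The 3 bins without any methylated read in MG were the first 3 windows of scaffold 2653, a scaffold of 4 windows that the study placed in the artificial chromosome 0. From 1 to 10000 it held 17, 40 and 101 methylated reads in FG, none in MG, and 2, 0 and 0 in SP. From 10001 to 20000 the counts were 16, 33 and 109 in FG, 0 in each MG library and 0, 0 and 1 in SP, and from 20001 to 30000 they were 13, 20 and 77 in FG, 0 in each MG library and 0, 0 and 2 in SP. A total of 0 over the MG libraries allows up to 3 reads, or 0.174 RPM, against which the mean FG level was at least 58.8-fold higher in the first bin, 57.0-fold in the second and 39.1-fold in the third, counting error only. FG3 held most of these reads, and without it the bounds were 42.9-fold, 36.6-fold and 24.2-fold. The FG libraries differed widely among themselves here, with 3.6, 11.3 and 15.7 RPM in the first bin. The study's tRNA table names 25 tRNA genes of 20 amino acids on this scaffold, and also Ile-GAT and Ala-TGC genes on scaffold 4987. Whether scaffolds 2653, 4974, 4987 and 5567 belong to the kelp nucleus was not tested.

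Listed cytosines and their reads allow a measure that the rule did not use directly, the number of reads per listed site. It was divided by the median of the tested windows of the library, so that 1 is the usual depth. A cytosine with more reads has more chances to show a methylated read and to pass 5 reads, so this measure and the rule are linked. The methylated reads used by the rule are also part of the reads counted here. Higher FG values in these bins may thus follow in part from the choice, and the limma calls below are no independent support for the bias. In the female-biased bins the median of the relative depth was 1.39, 1.39 and 1.44 in FG, 0.94, 0.94 and 0.93 in MG, and 1.20, 1.13 and 1.14 in SP. The order of the stages was the same as for the methylated reads.

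Reads per listed site were compared between FG and MG with limma over all 52445 windows with at least 10 listed cytosines in each of the 6 libraries, with Benjamini-Hochberg adjustment. Of the 939 female-biased bins, 868 could be tested, and the other 71 all had fewer than 10 listed cytosines in at least 1 MG library. Reads per site were higher in FG in 713 bins, lower in 0 and in neither direction in 155 at an adjusted p below 0.05. At an unadjusted limma p below 0.05, 807 bins were higher, and 8726 of the 52445 tested windows differed in either direction. Without the division by the library median, 121 of the bins were called higher and 0 lower, with 193 windows higher and 640 lower in all. Over all tested windows, 2049 or 3.91% were higher and 3486 or 6.65% were lower in FG. The FG libraries lay above all MG libraries in 799 of the 868 bins, against 10.2% of all tested windows. The median log2 difference was 0.57 in the bins and 0.01 in all tested windows.

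**Figure D4:**
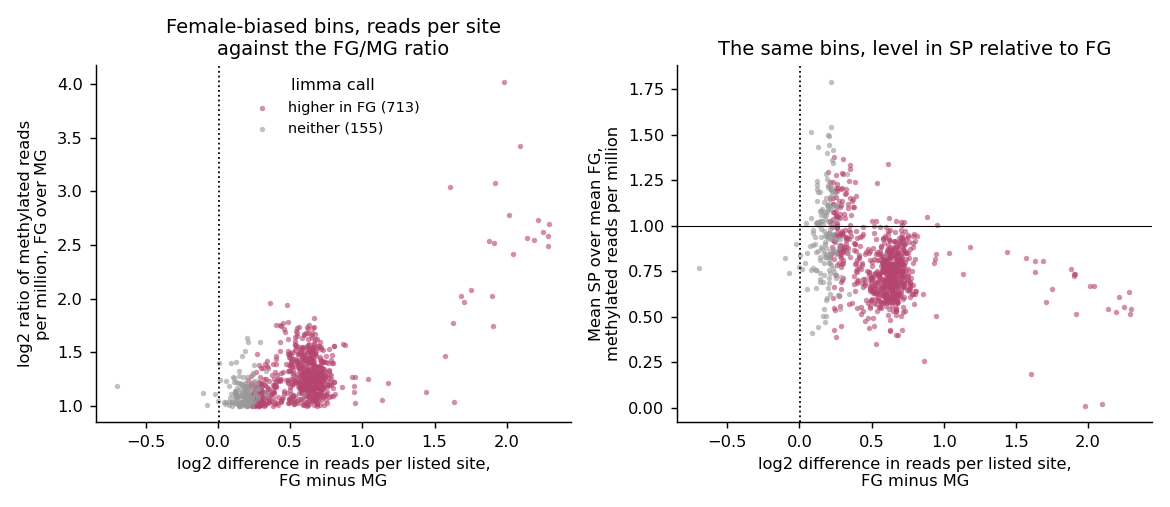
Each point is 1 of the 868 tested female-biased bins. The x axes give the log2 difference in reads per listed site (FG minus MG; dotted line, median of all tested windows), the y axes the log2 FG over MG ratio of RPM (left; the rule keeps values of at least 1) and the mean SP over mean FG ratio (right; line at equal levels), and colour gives the limma call. The median difference is 0.57, 27 bins lie above 1, and of these 27 none reaches the FG level in SP.

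3 ranges of depth were visible among the bins, with limits set after the values were seen. In 537 bins the log2 difference was 0.4 to 1, with a median relative depth of 1.53 in FG, 0.99 in MG and 1.24 in SP, and 149 of these bins were on chromosome 29. In 304 bins the difference was under 0.4, with 0.99 in FG, 0.84 in MG and 1.0 in SP, and these included 22 of the chromosome 7 bins and 7 of those on chromosome 29. The 27 bins above 1 had 3.77 in FG, 1.0 in MG and 2.29 in SP. FG and SP thus lay above the usual depth of the library in the first class and in the smallest, and MG below it in the second. Sites under 5 reads are not listed, and the library medians lay between 7.29 and 9.74 reads per site. Values below the usual depth are therefore compressed toward this floor. Without SP1 the SP medians were 1.21, 0.99 and 2.03 in the order given.

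The SP over FG ratio fell across these classes, but FG enters both the classes and the ratio, so they are not independent. The median FG over MG ratio of methylated reads was 2.14, 2.42 and 5.62 from the class of small differences upward. SP was at or above FG in 123 of the 304 bins with small differences, in 11 of the 537 bins with a difference of 0.4 to 1, and in 0 of the 27 bins above 1, and the median SP over FG ratios were 0.94, 0.73 and 0.67. Without SP1 the counts were 130, 43 and 0 and the ratios 0.96, 0.77 and 0.66. By chromosome, 153 of the 156 tested bins on chromosome 29 were called higher in FG, with a median difference of 0.62, against 14 of 26 on chromosome 7, with 0.27. On chromosome 3, 13 of 13 tested bins were called, and on chromosome 11, 2 of 8. Differences between chromosomes were not tested.

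Scaffolds 120 and 867 had the largest differences. The bins named here were selected on methylated reads and then named for their rank in this fit. Their p-values are thus no independent support for the bias. On scaffold 120 from 20001 to 30000 the relative depth was 4.83, 4.80 and 5.35 in FG, 1.01, 1.03 and 1.01 in MG, and 3.89, 2.88 and 3.10 in SP, with a log2 difference between FG and MG of 2.30 (SE 0.12; limma, adjusted p = 6.9e-08). On scaffold 867 from 70001 to 80000 it was 5.08, 4.62 and 5.58 in FG, 1.03, 1.06 and 1.04 in MG, and 3.60, 2.52 and 3.11 in SP, a log2 difference of 2.29 (SE 0.13; limma, adjusted p = 6.9e-08). After the segment on scaffold 120, the median relative depth of the 45 windows was 1.0, 0.98 and 1.02 in FG, 1.0, 0.99 and 1.03 in MG, and 0.98, 1.01 and 0.96 in SP. Reads per listed site therefore stepped at the same place as the methylated reads, to which they are linked. The depth of unlisted cytosines was not analysed here.

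On scaffolds that were female-biased along their length the differences were smaller. The bins named here were selected for high FG and low MG methylated reads, so their p-values are also no independent support for the bias. On scaffold 23, 80 of 81 tested bins were called higher in FG, with log2 differences between 0.042 and 0.80 and a median of 0.68, and the bin from 230001 to 240000 had 1.52, 1.52 and 1.56 in FG, 0.94, 0.995 and 0.88 in MG, and 1.55, 1.37 and 1.36 in SP (log2 difference 0.71, SE 0.075; limma, adjusted p = 3.8e-05). All tested bins of scaffolds 92, 170 and 745 were called, 51, 47 and 21 in number. The short scaffolds 4974 and 5567 also had large differences. Scaffold 4974 had a relative depth of 3.40, 4.52 and 3.40 in FG and 1.06, 0.87 and 0.73 in MG (log2 difference 2.09, SE 0.15; limma, adjusted p = 5.4e-07), and scaffold 5567 had 2.96, 4.25 and 2.81 in FG and 1.01, 0.87 and 0.66 in MG (log2 difference 1.98, SE 0.16; limma, adjusted p = 3.6e-06).

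A negative difference was found in 4 bins. The lowest, on scaffold 146 from 480001 to 490000, had 2.13, 2.38 and 1.94 in FG and 5.43, 3.55 and 2.18 in MG, with a log2 difference of -0.70 (SE 0.24; limma, adjusted p = 0.088), although its methylated reads were female-biased with 141, 158 and 141 in FG against 69, 68 and 111 in MG. The MG values were uneven, and the difference was -1.03 with an adjusted p of 0.0015 by limma when MG3 was left out.

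Because most listed cytosines had a single methylated read, more methylated reads in a bin came with more listed cytosines. Between 96.2% and 98.7% of the nuclear listed cytosines of a library had exactly 1. Whether these single reads reflect methylation, incomplete conversion or read error was not tested. The bins held 135340, 108800 and 155314 listed cytosines in FG, 60004, 61273 and 76818 in MG, and 36981, 16302 and 18270 in SP, and methylated reads per listed cytosine were 1.04, 1.03 and 1.05 in FG, 1.02, 1.02 and 1.03 in MG, and 1.01 in each SP library. Methylated reads made up 8.54%, 8.82% and 6.92% of all reads at the listed cytosines of these bins in FG, 13.3%, 13.1% and 10.8% in MG, and 7.83%, 11.3% and 10.8% in SP. In the other eligible windows these percentages were 10.7%, 10.9% and 9.37% in FG, 10.4%, 10.2% and 8.59% in MG, and 7.85%, 11.9% and 11.4% in SP. The methylated fraction at listed cytosines of the female-biased bins was thus lower in FG than in MG, and the libraries of the 2 sexes did not overlap. With mostly a single methylated read per listed cytosine, this fraction falls as the reads per listed cytosine rise. It therefore restates the difference in depth and does not measure how much of the bins was methylated, since cytosines without a methylated read are not listed.

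The excess of FG was larger among cytosines with more reads, up to 100. Cytosines of the bins with 5 to 8 reads were 1.20 times as frequent in FG as in MG per 1000000 listed nuclear cytosines, those with 9 to 12 reads 2.79 times, those with 13 to 20 reads 8.35 times and those with 21 to 100 reads 25.6 times. In the other eligible windows the ratios of the same classes were 1.13, 0.93, 0.69 and 0.81. MG3 held most of the deep cytosines among MG, and without it the ratios in the bins were 16.9 for 13 to 20 reads and 44.8 for 21 to 100 reads. Cytosines with 5 to 8 reads made up 33.4%, 35.8% and 22.6% of the listed cytosines of the bins in FG, 71.9%, 70.4% and 49.5% in MG, and 26.3%, 56.0% and 50.4% in SP.

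**Figure D5:**
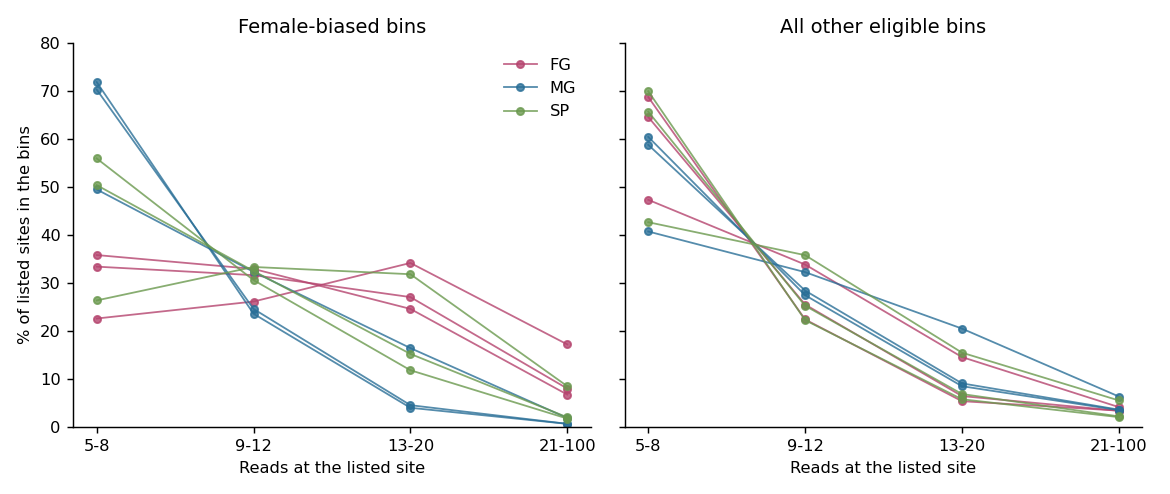
Percent of the listed cytosines with 5 to 8, 9 to 12, 13 to 20 and 21 to 100 reads in the female-biased bins (left) and in all other eligible windows (right), 1 line per library. In the bins the FG lines lie to the right of the MG lines, with 6.7% to 17.2% of cytosines at 21 to 100 reads in FG and at most 1.8% in MG.

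The listed cytosines of the bins, not their methylated reads, were divided by context as a description of the selection. The bins held 2.76%, 3.04% and 2.14% of the nuclear CpG sites in FG and 1.23%, 1.22% and 1.31% in MG, a ratio of means of 2.11. For CHG sites the shares were 3.13%, 3.20% and 2.87% in FG and 1.20%, 1.17% and 1.22% in MG (ratio 2.56), and for CHH sites 3.08%, 3.19% and 2.82% in FG and 1.17%, 1.14% and 1.20% in MG (ratio 2.59). In SP the shares were alike across contexts, between 2.16% and 2.40%. CpG sites made up 21.3%, 22.1% and 17.8% of the listed cytosines of the bins in FG, against 23.3%, 23.0% and 22.4% in the other eligible windows of the same libraries, and FG3 showed the largest gap. Plus-strand sites made up between 49.7% and 50.3% in the bins in every library.

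The cytosine with most methylated reads held a median of 1.5%, 1.7% and 1.3% of the methylated reads of a bin in FG, and at most 30%, 18.2% and 15.4%. The same cytosine was listed in at least 2 of the 3 FG libraries for 5.76% of the 377030 distinct cytosines in the bins, against 3.48% in the other eligible windows. For MG these shares were 3.09% and 4.17%, and for SP 1.22% and 0.90%. Most cytosines of these bins were therefore listed in 1 library of a stage only.

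The size of the set depended on the denominator and on the cytosines counted. With mapped reads of the library in place of nuclear methylated reads the rule picked 535 windows, and with only cytosines of at least 10 reads it picked 2104.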

How the data were processed

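Whole-genome bisulfite libraries of FG, MG and SP (3 each) were aligned and called by the authors with Bismark after read checks with FastQC and removal of duplicate pairs, per the labels and the study's methods. The name of the assembly version is not given in the sources used here, and positions follow the scaffolds of the deposited lists. The authors deposited, per cytosine, counts of methylated and unmethylated reads, the methylation level as a fraction, and p-values with corrected p-values. Counts were used as deposited, the level was recomputed and differed by less than 5e-07, and the p-values were not used beyond a check that corrected values were below 0.05. Every list held only cytosines with at least 5 reads and at least 1 methylated read, and organelle cytosines were left out. Reads without molecular identifiers are not independent molecules, so limits cover counting error only.

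Methylated reads were summed per 10-kb window and divided by the nuclear total, between 694551 and 6562515 methylated reads per library. Mean reads per listed cytosine of a window were taken as log2 values, centred on the median of tested windows of each library and compared with limma 3.58.1 (R 4.3.3; empirical Bayes with trend), after the script had been tested on simulated data. Tables were made with Python 3.11.15, numpy 2.4.6 and pandas 2.3.3. Chromosomes and tRNA genes came from the study's tRNA table (names only), and no genome sequence or gene annotation was used here. Windows were named by fixed rules: the strongest on the 5 scaffolds and on chromosomes 7 and 29, the 10 highest in FG, those without MG reads, the 3 on each side of the threshold, the 5 at each end of SP over FG, and the 5 at each end of the depth difference. The members, lists and rules were chosen with earlier results of these data known. Alternatives covered the read minimum, ratio, window length, denominator, kinds of cytosine, site minimum, centring, variance model, replicate block and leaving out each library.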

Additional observations from a re-analysis of the deposited data

How the results depend on the processing

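The number of female-biased bins was 2707 at a ratio of at least 1.5 and 92 at a ratio of at least 3, 2058 in bins of 5 kb and 442 in bins of 20 kb, 535 with mapped reads as denominator, 180 with only cytosines of at least 2 methylated reads and 2104 with only cytosines of at least 10 reads. Leaving out a gametophyte library gave between 895 and 1152 bins. The mean SP share of 2.26% was 5.91% at a ratio of 1.5, 0.209% at a ratio of 3, 2.55% in bins of 5 kb, 1.99% in bins of 20 kb, 1.35% with mapped reads, 0.846% with at least 2 methylated reads, 6.73% with at least 10 reads, 1.82% with CpG only and 2.49% with CHH only. Without 1 library it lay between 2.06% and 3.32%, the highest without FG3, and leaving out an SP library, an alternative chosen after the data were seen, gave 2.34%, 2.20% and 2.23% for SP1, SP2 and SP3. In these settings the share covers the bins that the setting picks.

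For reads per listed site, the median within a bin gave 683 windows higher in FG and 2347 lower, with 484 female-biased bins higher. Without centring 193 windows were higher and 640 lower, with 121 female-biased bins higher, beside 2049, 3486 and 713 with centring. Leaving out a library gave between 633 and 695 female-biased bins higher and between 0 and 1 lower, the 1 being scaffold 146 from 480001 without MG3. Of 105 values of the main counts and shares under alternatives, 80 stayed within 1.5 times the count or 1 SD of the share.

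Of the named bins, scaffold 146 from 480001 had a log2 difference of 0.30 (adjusted p = 0.54 by limma) with the median within a bin, in place of -0.70. With that setting scaffold 426 from 200001 had -0.038 in place of 0.084, scaffold 967 from 40001 0.12 in place of -0.021, and scaffold 4444 from 1, just outside the threshold, 0.064 in place of -0.056. When 1 library was left out, the difference lay between -0.069 and 0.017 for scaffold 967, turning positive without FG1 (0.012) or MG2, between -0.198 and 0.059 for scaffold 1265 from 130001, positive without FG2, and between -0.112 and 0.0042 for scaffold 4444, positive without MG1. The cause was not tested.

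FG and MG shared replicate numbers, and the deviations of same-numbered libraries correlated at 0.05, 0.15 and 0.29. FG3 correlated at -0.185 with MG1 and -0.188 with MG2, and MG3 at -0.078 with FG1 and -0.234 with FG2. For FG2 with MG1 the value was 0.147, and for FG1 with MG2 0.050. The numbers were not taken to pair the samples, but whether FG3 and MG3 shared a step of processing was not tested. With the replicate number as a block, 2441 windows were higher and 3697 lower in FG, and 743 female-biased bins were higher and 1 lower, scaffold 146 from 480001 (adjusted p = 0.015 by limma).

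SP levels rest on the fewest methylated reads, with 17 in the median bin of SP2 and 19 in SP3, and whether fewer cytosines were covered or fewer were methylated was not tested. An absent window can be unmethylated or uncovered, and the depth of unlisted cytosines was not analysed here.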
